A study of Mus musculus with 15 samples.

Results

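Clec4e, Clec4n, Clec5a and Clec7a encode C-type lectin receptors of myeloid cells, and Card9 encodes the adaptor protein through which several of these receptors signal. The members were chosen by gene name, with earlier results of these data known. Of the 5 genes so named, 3 had values here (Clec4e, Clec5a and Card9), out of 561 genes in the table, and Clec4n and Clec7a were not analysed here. Transcripts were measured with the nCounter Mouse Immunology Panel, in which probe pairs bind their target mRNA and an instrument counts the fluorescent barcode of each bound pair, with no amplification step. RNA came from spleen cell suspensions after lysis of red blood cells. The 15 samples formed 5 groups of 3, all from female C57BL/6J mice of 6 to 8 weeks. Sham mice had no irradiation and no burn. WBIR mice received 9 Gy of whole-body ionizing radiation, and RCI mice, for radiation combined injury, had the same 9 Gy and were also burned over 20% of the body surface. WBIR+MSC-EVs and RCI+MSC-EVs mice had the same injuries and were given extracellular vesicles from mouse bone marrow mesenchymal stem cells (MSC-EVs) intravenously 72 hours after injury. Spleens were taken 48 hours after that. A vehicle is given in the labels only for RCI without vesicles, while the study's text describes saline for mice that received no vesicles. The methods describe runs in triplicate, and the labels do not say if the 3 replicates of a group were separate mice, so p-values measure the spread between these samples, which may be technical.

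Mincle, the product of Clec4e, binds glycolipids of mycobacteria and fungi and a nuclear protein released by dying cells. It has no signalling tail of its own and pairs with the Fc receptor gamma chain, the product of Fcer1g. CLEC5A, also called MDL-1, pairs with DAP12, the product of Tyrobp, and is known as a receptor of flaviviruses on monocytes, macrophages and neutrophils. Both adaptors carry an activation motif that recruits the kinase SYK. Downstream of SYK, CARD9 assembles with BCL10 and MALT1 and passes the signal on to NF-kB, which drives genes such as Tnf, Il1b and Il6. In the spleen these receptors belong to macrophages, monocytes, neutrophils and some dendritic cells, and Clec4e is a known target of inflammatory stimulation.

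The sequences upstream of the 3 genes are given because macrophage and neutrophil genes are often controlled through GGAA-containing sites of ETS factors such as PU.1, and because the 3 genes are compared here as a group. Each run ends just before the RefSeq gene on assembly GRCm38.p6 and is written 5′ to 3′ on the strand of the gene. It holds 250 bases for Clec4e and Clec5a and 214 for Card9, whose annotated gene reaches 36 bases farther upstream than the start used in the RefSeq promoter table. Capitals mark the letters AGGAAG or GAGGAA, searched on both strands, which may overlap each other. Whether this build is that of the probe design was not given in the sources used here.
Clec4e, chr6:123289872-123290121, minus strand: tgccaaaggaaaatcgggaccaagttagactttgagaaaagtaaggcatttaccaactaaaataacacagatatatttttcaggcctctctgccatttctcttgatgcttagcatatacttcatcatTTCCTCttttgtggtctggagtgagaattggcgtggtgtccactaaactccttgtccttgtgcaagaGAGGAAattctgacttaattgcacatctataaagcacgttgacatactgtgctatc
Clec5a, chr6:40585806-40586055, minus strand: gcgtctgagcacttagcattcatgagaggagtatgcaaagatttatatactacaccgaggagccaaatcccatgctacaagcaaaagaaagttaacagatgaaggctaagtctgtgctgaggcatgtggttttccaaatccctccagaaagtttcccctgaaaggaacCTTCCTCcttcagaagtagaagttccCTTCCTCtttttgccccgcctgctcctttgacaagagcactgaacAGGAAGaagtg
Card9, chr2:26360946-26361159, minus strand: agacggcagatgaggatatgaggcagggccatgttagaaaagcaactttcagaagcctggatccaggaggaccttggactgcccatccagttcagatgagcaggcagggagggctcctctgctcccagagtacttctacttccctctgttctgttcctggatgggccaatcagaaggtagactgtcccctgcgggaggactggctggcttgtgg
GAGGAA occurred at 2 places upstream of Clec4e, with starts 123 and 56 bases before the gene. Upstream of Clec5a, AGGAAG occurred at 3 places, and GAGGAA overlapped 2 of them. The stretch shown for Card9, shorter at 214 bases, held neither. Only AGGAAG and GAGGAA were searched. GGAA with other neighbours, as in acttcc of the Card9 stretch read on the other strand, was not marked. Among 32851 RefSeq upstream stretches of 250 bases, 29.5% held AGGAAG, 23.3% held GAGGAA and 39.2% held either, so the matches are a description of letters that many genes share.

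To compare samples, each count was scaled by the geometric mean of the 14 reference genes in its sample, which gives the scaled counts below. The totals ran from 90127 to 598872 counts per sample. Sham replicate 2 and WBIR+MSC-EVs replicate 1 had the lowest totals, 179472 and 90127, and the largest scaling factors, 2.69 and 3.23, against 0.604 to 1.41 in the other 13 samples. All 3 genes gave few barcodes. Raw counts were 11 to 87 for Clec4e, 6 to 37 for Clec5a and 33 to 82 for Card9. For scale, 9 panel genes known mainly from other tissues, chosen after their values were seen, gave 1 to 11 counts, with medians per sample of 2 to 8. Clec5a had 6 to 24 raw counts in the 12 irradiated samples, so part of its range lay within that of these 9 genes.

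**Figure D1:**
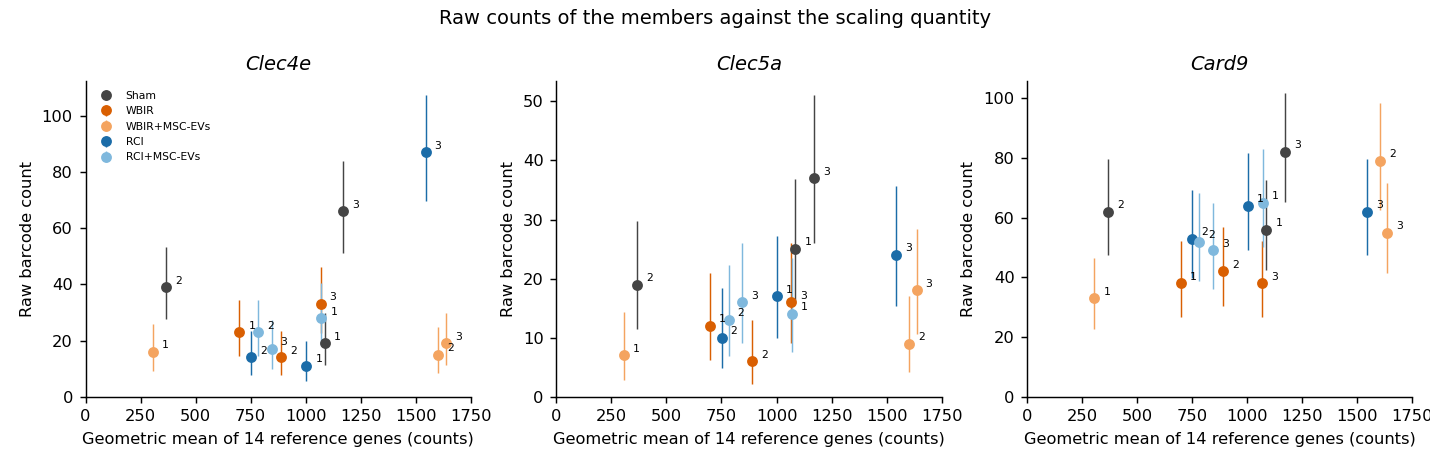
Raw barcode counts of Clec4e, Clec5a and Card9 (vertical axis, with exact 95% Poisson intervals that cover counting error only) against the geometric mean of the 14 reference genes in the same sample (horizontal axis), colored by group and marked with the replicate number. Sham replicate 2 and WBIR+MSC-EVs replicate 1 lie far to the left with reference means of 367 and 306 counts, yet their Card9 counts of 62 and 33 are within or at the low end of the range of the other samples.

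Clec4e varied strongly within groups. In Sham, scaled counts were 17.3, 105 and 55.7 in replicates 1 to 3. In WBIR they were 32.5, 15.6 and 30.5, and in RCI 10.8, 18.4 and 55.7. The 3 Sham samples thus spanned nearly the whole range of the gene, and Sham overlapped every irradiated group. After MSC-EVs, scaled counts were 51.7, 9.25 and 11.5 in WBIR+MSC-EVs and 25.8, 29.0 and 19.9 in RCI+MSC-EVs. Single samples lay apart from their group. WBIR+MSC-EVs replicate 1 was high among the WBIR groups, although it rests on 16 raw counts (95% exact Poisson interval 9.15 to 26.0), and RCI replicate 3 was high among the RCI groups on 87 raw counts (69.7 to 107).

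Clec5a separated Sham from all 4 irradiated groups. Its scaled counts were 22.7, 51.1 and 31.2 in Sham. They were 17.0, 6.67 and 14.8 in WBIR and 16.7, 13.2 and 15.4 in RCI. Every one of these injured samples was below the lowest Sham sample. With MSC-EVs they were 22.6, 5.55 and 10.9 after WBIR and 12.9, 16.4 and 18.7 after RCI. WBIR+MSC-EVs replicate 1, with 7 raw counts, was just below Sham replicate 1.

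Card9 differed less between most irradiated samples. Sham samples had 50.9, 167 and 69.2 scaled counts. WBIR samples had 53.7, 46.7 and 35.2, and RCI samples 63.0, 69.8 and 39.7. With MSC-EVs the values were 107, 48.7 and 33.2 after WBIR and 60.0, 65.7 and 57.3 after RCI. The 2 highest values of the series came from the libraries with the largest scaling factors, Sham replicate 2 and WBIR+MSC-EVs replicate 1. Sham overlapped each irradiated group.

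**Figure D2:**
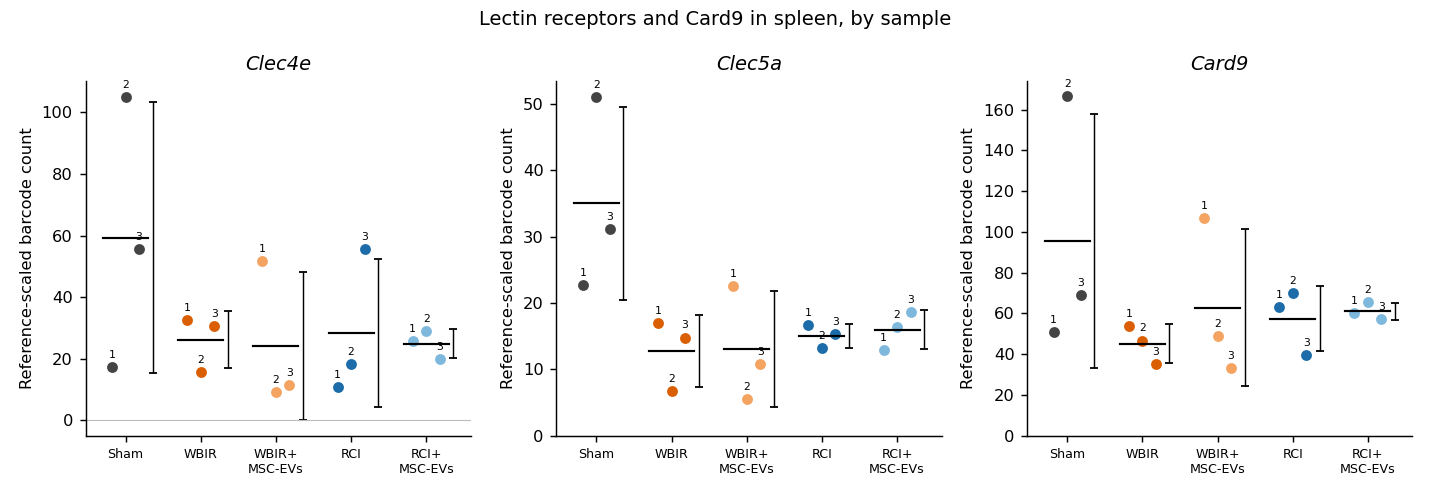
Scaled barcode counts (vertical axis, linear) of Clec4e, Clec5a and Card9 in each of the 15 samples, marked with the replicate number and grouped on the horizontal axis. The bar is the group mean and the whisker beside it the SD of the 3 samples. Sham replicate 2 is the highest sample for all 3 genes, at 105, 51.1 and 167.

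To ask whether radiation moved these genes, each irradiated group was set against Sham with edgeR's quasi-likelihood test on the counts, with all 15 samples in the fit. Values are log2 fold changes (log2FC) with standard errors (SE), and the threshold for a call was an adjusted p under 0.05 over the 426 endogenous genes whose mean count reached 20. Clec4e and Card9 passed this filter, and Clec5a, with a mean of 16.2, did not. None of the 2 genes was called in WBIR against Sham, where 68.5% of all genes tested were called, nor in RCI against Sham, where 69.5% were. The same held with MSC-EVs, with 0 of 2 called against a background of 67.8% in WBIR+MSC-EVs and 65.3% in RCI+MSC-EVs. At an unadjusted p under 0.05, Card9 in WBIR was the only one of these 8 tests that passed, against 72.5% of all genes in that comparison, 71.6% in RCI, 69.7% in WBIR+MSC-EVs and 71.4% in RCI+MSC-EVs. DESeq2 called 1 of the 2 genes in WBIR, Card9, and 0 in the other 3 groups. The share of all genes called by DESeq2 is not given here.

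Clec4e, the glycolipid receptor, averaged 59.3 ± 43.9 scaled counts in Sham (SD, n = 3), 26.2 ± 9.26 in WBIR, 28.3 ± 24.0 in RCI, 24.1 ± 23.9 in WBIR+MSC-EVs and 24.9 ± 4.65 in RCI+MSC-EVs. Its log2FC against Sham was -1.11 (SE 0.74, adjusted p = 0.191) in WBIR and -0.95 (SE 0.72, adjusted p = 0.249) in RCI. It was -1.54 (SE 0.79, adjusted p = 0.0951) in WBIR+MSC-EVs and -1.18 (SE 0.74, adjusted p = 0.170) in RCI+MSC-EVs. All 4 estimates lay below 0, but they share the Sham samples, and each 95% interval reached from a fall of several fold to a small rise, as in WBIR from -2.70 to 0.47. Averaged over the 4 irradiated groups, the log2FC was -1.20 (SE 0.55, adjusted p = 0.0633). Single libraries decided the call in places. Without RCI replicate 3, Clec4e was lower in RCI by the test (log2FC -1.95, adjusted p = 0.0428), where 28.3% of all genes tested rose and 42.5% fell. Without WBIR+MSC-EVs replicate 1 it was lower in WBIR+MSC-EVs (log2FC -2.43, adjusted p = 0.0136), as it was without Sham replicate 1 (log2FC -2.03, adjusted p = 0.0307). For the other fits with a library left out, here and below, the share of all genes called is not given. Without Sham replicate 2 the estimates moved toward 0, to -0.48 in WBIR.

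Card9, the shared adaptor, averaged 95.6 ± 62.3 scaled counts in Sham (SD, n = 3), 45.2 ± 9.37 in WBIR, 57.5 ± 15.8 in RCI, 62.9 ± 38.7 in WBIR+MSC-EVs and 61.0 ± 4.27 in RCI+MSC-EVs. Its log2FC was -1.04 in WBIR (SE 0.47, 95% interval -2.05 to -0.03), with an adjusted p of 0.0624. In RCI it was -0.70 (SE 0.46, adjusted p = 0.191), in WBIR+MSC-EVs -0.65 (SE 0.47, adjusted p = 0.236) and in RCI+MSC-EVs -0.60 (SE 0.46, adjusted p = 0.258). Averaged over the 4 irradiated groups, it was -0.75 (SE 0.35, adjusted p = 0.0696). The WBIR value lay close to the threshold and was called by DESeq2 (log2FC -1.05, adjusted p = 0.0431), as well as by edgeR without Sham replicate 1 (adjusted p = 0.0224) or without WBIR+MSC-EVs replicate 1 (adjusted p = 0.0377). Without WBIR+MSC-EVs replicate 1 the difference of WBIR+MSC-EVs from Sham was -1.17 and was called too (adjusted p = 0.0369). Much of the Sham mean came from replicate 2. Without it, the differences shrank to -0.42 in WBIR, -0.08 in RCI, -0.04 in WBIR+MSC-EVs and 0.02 in RCI+MSC-EVs.

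Clec5a, the DAP12-linked receptor, could be tested when the filter on low counts was dropped and all 547 endogenous genes were fitted. It averaged 35.0 ± 14.6 scaled counts in Sham (SD, n = 3), 12.8 ± 5.43 in WBIR, 15.1 ± 1.81 in RCI, 13.02 ± 8.74 in WBIR+MSC-EVs and 16.0 ± 2.91 in RCI+MSC-EVs. In that fit Clec5a fell in WBIR, with a log2FC of -1.40 (SE 0.48, adjusted p = 0.0214), a 2.63-fold lower level, where 55.6% of the 547 genes were called. It fell in WBIR+MSC-EVs by 1.61 (SE 0.50, adjusted p = 0.0122), where 54.8% were called, and in RCI by 1.15 (SE 0.46, adjusted p = 0.0470), where 56.7% were called. In RCI+MSC-EVs the log2FC was -1.07 (SE 0.47) with an adjusted p of 0.0662, where 52.7% were called. Averaged over the 4 irradiated groups, Clec5a was lower by 1.31 on the log2 scale, at -1.31 (SE 0.35, adjusted p = 0.00428). This average was not among the planned comparisons, and the share of all genes called in it was not computed. The average was not refitted under other scalings or with libraries left out. Groups without overlap, in either direction, were found in 59.8% of all 547 genes in WBIR, 54.3% in RCI, 56.1% in WBIR+MSC-EVs and 61.8% in RCI+MSC-EVs. Within a single comparison, a lack of overlap as in Clec5a was thus shared by most genes. The share of genes that were below Sham in all 4 groups at once was not computed. The calls in WBIR and RCI did not hold under TMM scaling (log2FC -0.91 and -0.85, adjusted p = 0.0918 and 0.0947) or without Sham replicate 2 (log2FC -1.08 and -0.83, adjusted p = 0.0737 and 0.150). The WBIR call was also lost without WBIR replicate 2 (adjusted p = 0.0978), the RCI call on leaving out any of 10 other libraries (adjusted p = 0.0515 to 0.116), and the WBIR+MSC-EVs call without WBIR+MSC-EVs replicate 2 (adjusted p = 0.0816). The RCI+MSC-EVs difference passed without Sham replicate 1 (adjusted p = 0.0396) or WBIR+MSC-EVs replicate 1 (adjusted p = 0.0392). It also passed with 7 reference genes (log2FC -1.23, adjusted p = 0.0426), by limma (log2FC -0.75, adjusted p = 0.0462), after background subtraction with limma (log2FC -0.99, adjusted p = 0.0081) and with the phagocyte markers as the scale (log2FC -3.41, adjusted p = 9.16e-05).

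These differences are relative to the reference genes. On that scale the median log2FC over all tested genes was -0.74 in WBIR, -0.53 in RCI, -0.61 in WBIR+MSC-EVs and -0.45 in RCI+MSC-EVs, so a typical panel gene was also lower than Sham. TMM scaling moved these medians up by 0.56, 0.32, 0.38 and 0.15. Set beside these medians in the same order of groups, the log2FC was -1.11, -0.95, -1.54 and -1.18 for Clec4e and -1.04, -0.70, -0.65 and -0.60 for Card9. Because the RNA is from whole spleen cell suspensions, fewer cells of a type and less RNA per cell cannot be told apart in any of these values.

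**Figure D3:**
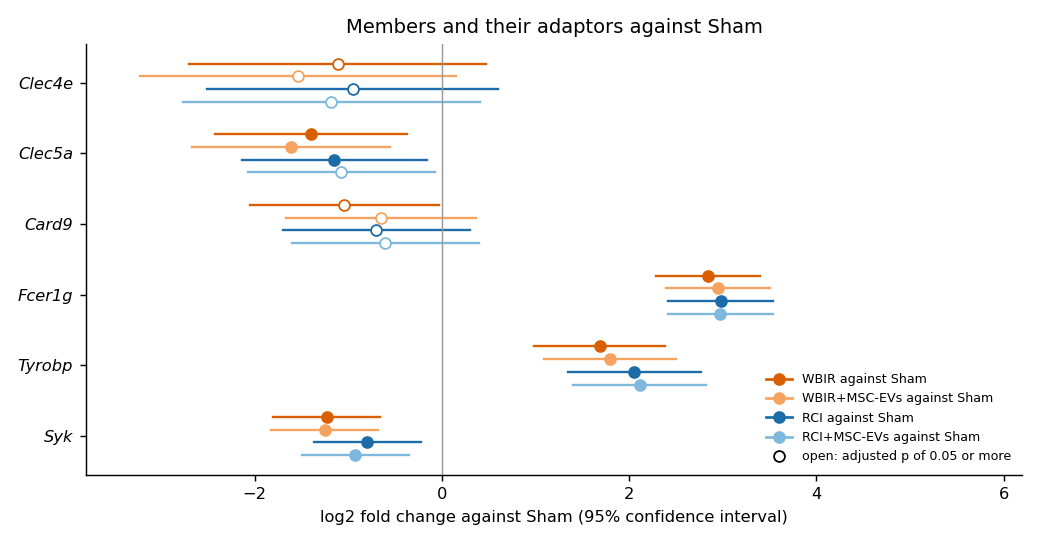
Log2 fold changes against Sham (horizontal axis) with 95% confidence intervals for the 3 members and for the adaptors Fcer1g and Tyrobp and the kinase Syk, 1 line per irradiated group. Filled points had an adjusted p under 0.05. Clec5a is from the fit without a filter on low counts and the others from the fit with it. The members lie left of 0 with wide intervals, while Fcer1g lies near 3 and Tyrobp near 2.

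The partners of the receptors moved in other ways. Fcer1g, the chain that carries the Clec4e product, gave 450 to 527 scaled counts in Sham, 2759 to 3885 in WBIR and 3059 to 4331 in RCI, with no overlap. It rose by a log2FC of 2.85 (SE 0.26) in WBIR and 2.98 (SE 0.26) in RCI. Tyrobp, which encodes the partner of CLEC5A, gave 1673 to 2963 scaled counts in Sham, 5690 to 7988 in WBIR and 5581 to 11367 in RCI. It rose by a log2FC of 1.68 (SE 0.33) and 2.05 (SE 0.33). Syk, the kinase both adaptors recruit, gave 2483 to 4432 scaled counts in Sham, 1280 to 1538 in WBIR and 1564 to 2714 in RCI. It fell by 1.23 (SE 0.27) in WBIR and by 0.79 (SE 0.27) in RCI on the log2 scale. Under median-of-ratios scaling Syk missed the threshold in WBIR (log2FC -0.64, adjusted p = 0.0905) and in RCI (log2FC -0.36, adjusted p = 0.328), and under TMM scaling in RCI (adjusted p = 0.198). Bcl10 and Malt1, the partners of CARD9, were not analysed here.

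A ratio of 2 genes within a sample does not depend on the scaling, so members were also set against their partners as log2 ratios of raw counts, whose size across genes carries no meaning because each probe counts with its own efficiency. Of the 21 ratios considered, 8 could be computed. Clec4e over Fcer1g was -4.79, -2.33 and -3.01 in the Sham samples and between -8.98 and -5.78 in the 12 irradiated samples. The mean difference was -3.99, a 15.9-fold lower ratio, and no irradiated sample reached the Sham range. Clec5a over Tyrobp was -6.47, -5.86 and -5.74 in Sham and -10.7 to -8.06 in the irradiated samples, a mean difference of -3.24. Both differences had an adjusted p of 0.00352 in a two-sided exact permutation test over all 455 assignments of 12 irradiated and 3 Sham samples, over the 8 ratios. The smallest unadjusted p this design allows is 0.0022, and both ratios reached it.

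The same was true of the 3 members over the mean log2 count of 10 mononuclear phagocyte markers, with adjusted p = 0.00352 in the exact permutation test for each. The difference was -3.28 for Clec4e, -3.53 for Clec5a and -2.85 for Card9. Such shifts were the rule on this panel. Of 416 genes tested outside these markers, 74.0% had a lower ratio to the phagocyte markers without overlap between irradiated and Sham samples. Their median difference was -2.80, and Clec4e and Card9 are among the 416. For ratios to Fcer1g the share was 83.1% with a median of -3.54, and for ratios to Tyrobp 68.4% with a median of -2.54. Card9 was near the median for the phagocyte markers, at -2.85 beside -2.80. Clec4e lay lower, at -3.28 beside -2.80 and, over Fcer1g, at -3.99 beside -3.54. Clec5a also lay lower, at -3.53 beside -2.80 and, over Tyrobp, at -3.24 beside -2.54. The spread of single genes around these medians was not computed.

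**Figure D4:**
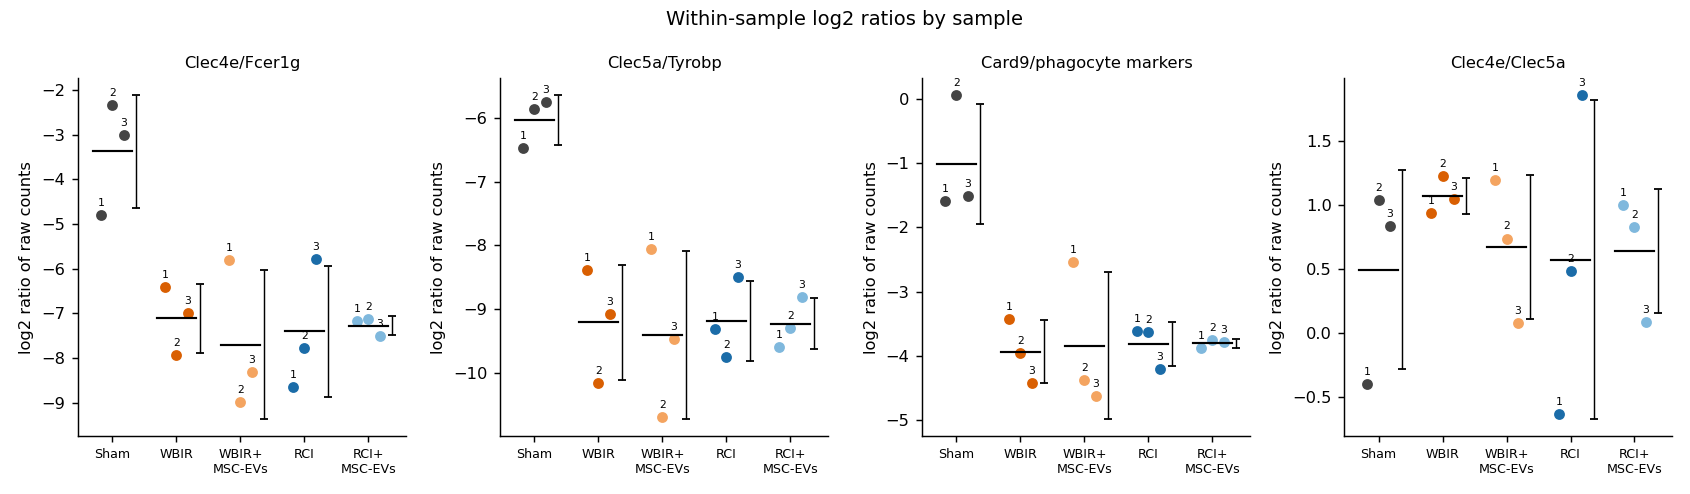
Log2 ratios of raw counts within each sample (vertical axis) for Clec4e over Fcer1g, Clec5a over Tyrobp, Card9 over the mean log2 count of 10 phagocyte markers, and Clec4e over Clec5a, with the replicate number, the group mean (bar) and SD (whisker, n = 3). The first 3 panels show Sham apart from all 12 irradiated samples, and in the last panel Sham lies within the irradiated range of -0.63 to 1.86.

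Among the members themselves the proportions did not separate injured from Sham spleens. Clec4e over Clec5a differed by 0.24 between irradiated and Sham samples (adjusted p = 0.611, exact permutation test). Clec4e over Card9 differed by -0.43 (adjusted p = 0.502, exact permutation test). Clec5a over Card9 differed by -0.68, a 1.60-fold lower ratio (unadjusted p = 0.0659, adjusted p = 0.0879, exact permutation test), with the groups overlapping.

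To ask what a burn added to radiation, the RCI groups were set against the WBIR groups, averaged over treatment. None of the 2 tested members was called, where 3.05% of all genes were. The log2FC was 0.26 (SE 0.54, 95% interval -0.90 to 1.41) for Clec4e, 0.19 (SE 0.33, -0.52 to 0.91) for Card9 and, without the filter, 0.39 (SE 0.35, -0.35 to 1.14) for Clec5a, where 3.47% of genes were called. The interval for Clec4e was the widest. The sign for Clec4e rested on RCI replicate 3, without which it was -0.23. The direct comparison of RCI with WBIR called neither gene, against 0.704% of all genes tested.

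The question of whether MSC-EVs shifted these genes was addressed within each injury. No gene of the 426 was called in WBIR+MSC-EVs against WBIR or in RCI+MSC-EVs against RCI by edgeR, a background of 0%, and at an unadjusted p under 0.05 the shares were 2.58% and 3.29% of all genes and 0 of the members. DESeq2 called 0 of the 2 members in both, and its share of all genes is not given here. In WBIR+MSC-EVs against WBIR the log2FC was -0.43 (SE 0.79, 95% interval -2.13 to 1.27) for Clec4e and 0.39 (SE 0.48, -0.63 to 1.42) for Card9. Clec5a, without the filter, was at -0.22 (SE 0.51, -1.31 to 0.88). In RCI+MSC-EVs against RCI the values were -0.23 (SE 0.73, -1.80 to 1.34) for Clec4e, 0.09 (SE 0.46, -0.90 to 1.08) for Card9 and 0.07 (SE 0.48, -0.94 to 1.09) for Clec5a. With the replicate number as a block within each injury, no gene of the 426 was called either. The signs were not stable. Without WBIR+MSC-EVs replicate 1 the Card9 difference after WBIR was -0.13, and without RCI replicate 3 the Clec4e difference after RCI was 0.78. The MSC-EV effect averaged over injuries and its difference between injuries called no member either. None of the 8 ratios passed the exact permutation test for burn or for MSC-EVs, with adjusted p-values of at least 0.905 (smallest possible unadjusted p 0.005 over 400 assignments).

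In order of mean level, Clec4e ran from Sham through RCI, WBIR and RCI+MSC-EVs to WBIR+MSC-EVs. For Clec5a the order was Sham, RCI+MSC-EVs, RCI, WBIR+MSC-EVs and WBIR, and for Card9 it was Sham, WBIR+MSC-EVs, RCI+MSC-EVs, RCI and WBIR. Sham led in all 3. No neighbouring pair among the irradiated groups differed beyond its spread, as every such pair overlapped and none was called.

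Genes that varied with the members were sought over the 12 irradiated samples by Pearson correlation of log2 scaled counts, as a description without a test. Sham was left out because it stands apart. Closest to Clec4e was Csf3r, the receptor for granulocyte colony-stimulating factor (r = 0.88, n = 12), followed by Notch1 (0.79) and the integrin gene Itgal (0.74). Without the 2 samples farthest from the Clec4e median, RCI replicate 3 and WBIR+MSC-EVs replicate 2, r was 0.92 for Csf3r, 0.60 for Notch1 and 0.72 for Itgal. In both Clec4e and Csf3r, RCI replicate 3 and WBIR+MSC-EVs replicate 1 were the 2 highest irradiated samples, at 340 and 310 scaled counts of Csf3r, and Sham replicate 2 was the highest of all at 1305. WBIR+MSC-EVs replicate 1 had only 96 raw counts of Csf3r, the lowest of the series, and 16 of Clec4e, with a scaling factor of 3.23. The check without the 2 farthest samples kept this library, and the part of shared scaling in r was not tested. Closest to Card9 were Il1rap, a co-receptor of interleukin-1 (r = 0.92), H2-Ob (0.88) and Zeb1 (0.87), and without WBIR+MSC-EVs replicates 1 and 3 these were 0.85, 0.83 and 0.77. Closest to Clec5a were Traf3 (r = 0.85), Ppbp (0.76) and Spn (0.74), which fell to 0.56, 0.52 and 0.43 without WBIR+MSC-EVs replicate 2 and WBIR replicate 2, so this ranking rested on those libraries. Among the members, r was 0.64 for Clec4e with Clec5a, 0.45 for Clec5a with Card9 and 0.25 for Clec4e with Card9, or 0.48 for the last pair without RCI replicate 3.

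Cell type markers moved strongly in the same spleens. Summed scaled counts of 10 mononuclear phagocyte markers were 2616 to 3342 in Sham, 11710 to 19829 in WBIR and 17570 to 40564 in RCI, and 7 of the 10 rose in each. In RCI 1 of the 10 fell, Ccr2, a chemokine receptor of monocytes, named after its values were seen (log2FC -1.35, adjusted p = 0.0181). Summed counts of 6 neutrophil markers were 7845 to 44392 in Sham, 1676 to 5242 in WBIR, 1922 to 10085 in WBIR+MSC-EVs, 1452 to 2002 in RCI and 2101 to 4109 in RCI+MSC-EVs, and 4 of the 5 tested fell in both WBIR and RCI. Camp, a defining gene of neutrophil precursors, gave 239 to 1648 raw counts in Sham and 2 to 4 in WBIR. The neutrophil sum was lowest among Sham samples in replicate 1, at 7845, and highest in replicate 2, at 44392, which is the order of Clec4e, Clec5a and Card9 in the same samples. The summed NK markers, at 1771, 5942 and 1959 in Sham replicates 1 to 3, and the summed dendritic cell markers, at 2952, 3213 and 3014, had the same order. The other sums had not. In Sham replicates 1 to 3 the mononuclear phagocyte markers were at 3230, 2616 and 3342, with replicate 2 lowest. The T cell markers were at 7383, 11991 and 6004, and the B cell markers at 19267, 17819 and 18187. Among irradiated samples WBIR+MSC-EVs replicate 1 had the highest neutrophil sum and the highest NK sum, at 3627, while RCI replicate 3, with the highest Clec4e, had the lowest, at 1452. All 8 B cell and all 9 T cell markers fell in WBIR and RCI. Of the 6 NK markers, 1 rose and 1 fell in WBIR, and 1 rose and 3 fell in RCI. Of 4 dendritic cell markers tested, 1 rose and 1 fell in each. The part of these marker changes in the values of Clec4e, Clec5a and Card9 was not tested.

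The rest of the pathway was followed through 5 lists of genes, 49 of them tested. Of these, 8 rose and 25 fell in WBIR, with a median log2FC of -0.86 beside -0.74 for all genes tested. In RCI 11 rose and 17 fell, with a median of -0.53 beside -0.53. Without RCI replicate 3 these were 10 and 23 of 48 tested, with a median of -0.76 beside -0.52. Among all genes 21.6% rose and 46.9% fell in WBIR, and 26.5% rose and 43.0% fell in RCI.

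Of 6 receptor adaptors and kinases, 3 rose in both comparisons, Fcer1g, Tyrobp and the kinase gene Src, which was named after its values were seen (log2FC 1.99 in WBIR and 1.61 in RCI). Syk and Btk, the kinase of B cell receptor signalling and itself a B cell marker, fell in both. Prkcd, the kinase that acts between SYK and CARD9, fell in WBIR by 0.88 on the log2 scale, and in RCI its log2FC was -0.34 (adjusted p = 0.0986). Under median-of-ratios scaling none of these 3 kinases was called lower in WBIR.

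Of 14 CARD9 partners and NF-kB genes, 13 fell in WBIR and 7 in RCI, and none rose. The median log2FC was -1.50 in WBIR and -0.60 in RCI. Without RCI replicate 3, 12 of the 14 fell in RCI and the median was -1.25. The largest falls in WBIR were those of Tnfaip3, a negative regulator of NF-kB (-2.26), Ikbkb, the catalytic subunit of the IkB kinase (-2.23), and Nfkbia, the inhibitor of NF-kB (-2.06). In RCI they were Nfkbia (-1.68), Ikbkb (-1.63) and Ikbkg, the regulatory subunit of the kinase (-1.57). Under TMM scaling 9 fell in WBIR and 4 in RCI, and under median-of-ratios scaling 7 and 4. Tnfaip3 had a log2FC of -0.16 in RCI, and of -1.82 (adjusted p = 0.0019) when RCI replicate 3 was left out.

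Of 13 cytokine and effector genes downstream, 3 rose and 3 fell in WBIR, and 5 rose and 3 fell in RCI. Il18 rose in both, by a log2FC of 3.39 and 3.44, and Il1a by 2.26 and 4.81. Il12a, a subunit of interleukin-12, fell by 3.797 on the log2 scale in WBIR. Ccl2, the monocyte chemokine, rose in RCI by 4.97. RCI replicate 3 led these values, with 353 scaled counts of Ccl2 beside 30.5 and 50.03 in the other RCI samples, and 1794 of Il1a beside 168 and 244. It was also the RCI sample with the highest Clec4e. Without it the log2FC of Il1a in RCI was 2.97 (adjusted p = 0.000185), and Ccl2 no longer passed the filter on low counts. Il1a, at 11.8 to 37.955 scaled counts in Sham, was above that range in all 6 WBIR and RCI samples.

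Of 7 inhibitory receptors and phosphatases, 2 rose and 3 fell in WBIR, and 3 rose and 2 fell in RCI, or 3 and 3 without RCI replicate 3. Lilrb4, an inhibitory receptor of myeloid cells, rose by a log2FC of 2.62 in WBIR and 3.32 in RCI, and Lilrb3, its relative, by 2.13 in RCI. Fcgr2b, the inhibitory Fc receptor of B cells and myeloid cells, fell by 3.07 in WBIR, and Ptpn22, a phosphatase of lymphocytes, by 2.20 in WBIR and 1.96 in RCI. Of 9 other genes with a C-type lectin domain, 3 fell in both. Cd69, an activation marker of lymphocytes, had a log2FC of -3.04 in WBIR and -1.97 in RCI, and Klrd1, a chain of NK cell receptors, had -2.53 and -3.54. The Klr genes have close relatives, and cross-hybridisation between them was not assessed.

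With the burn averaged over treatment, 5 of the 49 pathway genes rose and none fell, beside 3.05% of all genes called. These were Tnf (log2FC 1.76), Fcgr2b (1.08), Cd69 (0.94), Socs1 (0.77) and Prkcd (0.58), named after their values were seen. Tnf gave 264 scaled counts in RCI replicate 3 against 47.3 and 52.7 in the other RCI samples, and without that library its log2FC was 1.11 and was not called (adjusted p = 0.0561), which left 4 rises and 0 falls. The burn calls also depended on the scaling, as the count of all lists was 1 rise and 4 falls under TMM scaling.

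**Figure D5:**
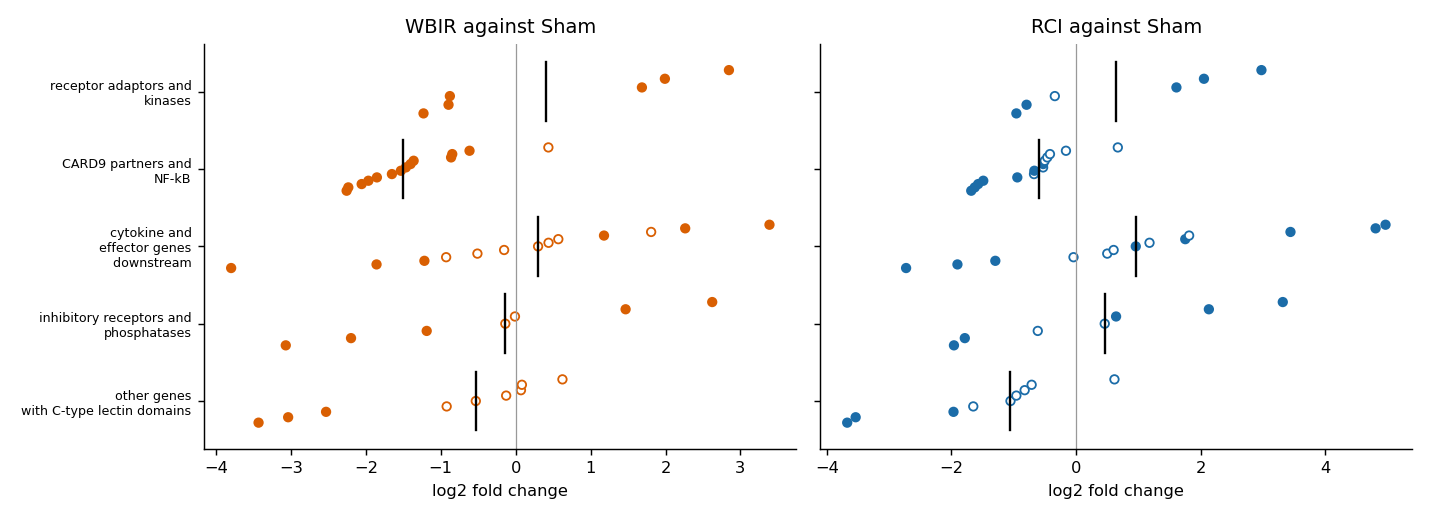
Log2 fold changes of the genes in the 5 pathway lists (horizontal axis) in WBIR against Sham and RCI against Sham, 1 point per gene, spread vertically within a list in order of value. Filled points had an adjusted p under 0.05, and the black line is the list's median, at -1.50 and -0.60 for the CARD9 partners and NF-kB genes.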

How the data were processed

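The authors hybridized 100 ng of RNA per sample to the nCounter Mouse Immunology Panel and normalized with nSolver 4.0, per the submitters' processing notes. The deposited values used here are barcode counts as read, not yet normalized, with 84 values at the minimum of 1, which may stand for 0. Control probes were not used here, and no background was subtracted in the main setting. Samples were grouped by their labels, and counts were scaled to the geometric mean of 14 reference genes. Endogenous genes whose mean count reached 20 (426 of 547) were tested with the quasi-likelihood test of edgeR 4.0.16 under R 4.3.3 (robust glmQLFit, 1 coefficient per group, 10 residual degrees of freedom), two-sided, with Benjamini-Hochberg adjustment within each comparison. The coefficient of variation between replicates was 33.1%. Clec5a was tested without the filter. The average of the 4 irradiated groups against Sham was added to the planned comparisons. Within-sample log2 ratios were tested by exact permutation. Correlations used log2(scaled count + 1). Fcer1g, Tyrobp and Syk were named whatever their values. From each other list, up to 3 genes with the largest called changes in WBIR and in RCI against Sham were named, of which 1 gene is not reported here. Other genes named from the lists were chosen after their values were seen. Alternatives were TMM and median-of-ratios scaling, the 7 least variable reference genes, phagocyte markers as the scale, other filters, DESeq2 1.42.0, limma 3.58.1 on log2(scaled count + 10), a replicate block, each library left out and, chosen after seeing the data, a replicate block within each injury, background subtraction and both libraries with the largest scaling factors left out. The edgeR script was tested on simulated data. Samples of 1 injury with the same replicate number, with and without MSC-EVs, deviated together from their group means (6 correlations of 0.287 to 0.706). The replicate number therefore served as a block within each injury in 1 alternative. The main MSC-EV tests and the permutation tests left the samples unpaired. In the other 24 pairs of same-numbered samples the correlations ran from -0.502 to 0.295. The members and lists were chosen with earlier results of these data known. No duplicated library was found, as replicate pairs differed beyond counting noise (chi-square per degree of freedom at least 7.94). All 3 members were current RefSeq symbols, as were 545 of the 561 names.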

Additional observations from a re-analysis of the deposited data

How the results depend on the processing

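The count of tested members called against Sham, 0 of 2 in each irradiated group, was unchanged by TMM scaling, median-of-ratios scaling, the 7 least variable reference genes, limma, background subtraction and the filter at a mean of 50 counts, which left Card9 alone. It was 2 in all 4 groups when the phagocyte markers served as the scale, where the median log2FC of all genes was -2.74 to -2.85 and 81.9% to 83.1% of all genes were called. It was 1 in WBIR, RCI and WBIR+MSC-EVs without a filter (Clec5a), 1 in WBIR by DESeq2 and 1 in WBIR+MSC-EVs without both libraries with the largest scaling factors. With single libraries left out it ranged from 0 to 1 in WBIR, 0 to 1 in RCI and 0 to 2 in WBIR+MSC-EVs. For DESeq2 and the fits with libraries left out, apart from RCI without replicate 3, the share of all genes called is not given.

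Other changes of sign were all in uncalled differences, and not all of these were small. Without both libraries, Card9 was at 0.020 in RCI+MSC-EVs against Sham and at -0.13 in WBIR+MSC-EVs against WBIR. In RCI+MSC-EVs against RCI, Clec4e was at 0.035 by limma, 0.0014 after background subtraction and 0.070 with a replicate block within injury. In the same comparison Clec5a was at -0.091 under TMM, -0.13 under median-of-ratios, -0.043 under phagocyte scaling and -0.028 after background subtraction, and Card9 at -0.020, -0.053 and -0.0096 under the first 3. For the burn averaged over treatment, Card9 was at -0.035 under TMM, -0.054 under median-of-ratios, -0.050 with 7 reference genes and -0.027 under phagocyte scaling. With single libraries left out, the ranges were -0.92 to 0.020 for Card9 in RCI+MSC-EVs against Sham, -1.32 to 0.050, -0.62 to 0.23 and -0.13 to 0.73 for Clec4e, Clec5a and Card9 in WBIR+MSC-EVs against WBIR, -0.61 to 0.78, -0.055 to 0.21 and -0.12 to 0.25 in RCI+MSC-EVs against RCI, -0.23 to 0.71 for Clec4e with the burn, and -0.20 to 0.52 for the log2 ratio of Clec4e over Clec5a. The 5 ratios past the threshold held under every alternative run. The cause was not tested in any of these cases.

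The replicate block within each injury changed no member's call in the MSC-EV comparisons. Across Sham and the injuries the numbers did not pair the samples. With the replicate number as a block over all groups, the Clec5a difference in RCI was -1.18 and missed the threshold (adjusted p = 0.0596), and no other member's call changed. In RCI, Clec5a also missed it under median-of-ratios scaling (adjusted p = 0.104) and without both libraries (adjusted p = 0.0788), and in WBIR under median-of-ratios scaling (adjusted p = 0.0997). Of the ratios planned, 13 were not run. Few barcodes limit all 3 members, and 3 samples per group limit each test.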
